A study of Rattus norvegicus with 2 samples.

Results

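Dividing fibroblasts were the fibroblasts of the rat optic nerve culture in which transcripts of Top2a, Mki67, Ube2c and Cenpf together made up at least 300 counts per 1000000 captured transcripts (CPM). They numbered 264 of 3036 fibroblasts and of 3761 kept cells, with 180 from the WT library and 84 from the Nuc1 library. A cell was kept with at least 500 detected genes and at most 20% of its transcripts from the 13 mitochondrial genes. It counted as a fibroblast with at least 500 CPM of Col1a1, Col3a1, Dcn and Lum together and less than 500 CPM of the astrocyte genes Gfap, Fabp7 and Aqp4. The other 2772 fibroblasts, 1576 from WT and 1196 from Nuc1, met the same rule with less than 300 CPM of the 4 division genes and served as the reference. The division genes, the collagen genes and every other gene of these cells belong to the readout the cells were chosen by, so differences between dividing and other fibroblasts are described here and not tested.

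Mixed glial cells were cultured from the optic nerve of rats on the Sprague Dawley background, either wild type (WT) or carrying Nuc1, a spontaneous insertion in the crystallin gene Cryba1. Each genotype gave 1 library, made with a droplet-based kit that reads the 3′ end of each transcript and counts unique molecular identifiers (UMIs), 1 per captured molecule. Both libraries are labelled with an age of 7 days. The number of pups pooled in each library was not given in the sources used here. No Cryba1 UMI was recorded in either library, so the genotype could not be checked from the counts.

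A cell that divides passes through G1, copies its DNA in S phase, prepares for mitosis in G2 and separates its chromosomes in M phase. Transcription follows this order: genes for DNA synthesis are switched on at the G1/S boundary by E2F factors, and genes for the spindle, the kinetochore and cytokinesis follow in G2 and M under the DREAM and MuvB complexes, B-Myb and FoxM1. Top2a untangles DNA, Mki67 coats mitotic chromosomes, Ube2c attaches ubiquitin for the anaphase-promoting complex and Cenpf binds kinetochores, so a rule built on these genes reaches cells from late S phase to M phase more readily than cells in early S phase.

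The label of the cells was checked against markers that the rule did not use. Cdk1, the kinase that drives entry into mitosis, was at 554 CPM in dividing and 13.8 CPM in other fibroblasts of the WT library, and at 408 and 8.63 CPM in Nuc1 cells. Cks2, a small partner of the cyclin-dependent kinases, was at 526 and 15.3 CPM in WT cells and at 351 and 9.12 CPM in Nuc1 cells. Nusap1, which bundles spindle microtubules, was at 248 and 4.11 CPM in WT cells and at 273 and 4.17 CPM in Nuc1 cells. All 3 markers therefore followed the division genes in both libraries. Cdk1 was detected in 95.6% of dividing WT cells against 15.1% of other WT fibroblasts, and in 88.1% against 9.20% in Nuc1 cells. Dividing cells were also the deeper ones, with a median of 23081.5 UMIs against 13273 in WT cells and 26166.5 against 14841 in Nuc1 cells. After each cell was thinned to 10000 UMIs, which left out 13 dividing and 245 other WT cells and 6 dividing and 179 other Nuc1 cells, Cdk1 was detected in 92.8% against 11.0% of WT cells and in 85.9% against 5.70% of Nuc1 cells. The abundance of Col1a1, Col3a1, Dcn and Lum was set by the rule and checks nothing. Sparc, a matrix glycoprotein of fibroblasts that the rule did not use, was at 3900 CPM in dividing and 4518 CPM in other WT fibroblasts and at 3196 and 3429 CPM in Nuc1 cells. It was picked after its values were seen and alone does not settle the fibroblast label. Of 28 matrix genes outside the rule, 18 were lower and 5 higher in dividing cells of both libraries.

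Markers of the other cell types that the gate could hold were summed in the same way. The 10 astrocyte markers outside the rule reached 2169 CPM in dividing and 2795 CPM in other WT fibroblasts and 1992 and 2426 CPM in Nuc1 cells. Most of this sum was Gja1, a gap junction protein, and Dbi, which binds acyl-CoA, at 1127 and 604 CPM in WT and 1037 and 519 CPM in Nuc1 dividing cells. Slc1a2, a glutamate transporter of astrocytes, had 1 and 0 UMIs in dividing cells, and their low Gfap, Fabp7 and Aqp4 was set by the rule. Slc1a2 was not typical of the list, since 0 of the 10 markers in WT and 1 in Nuc1 dividing cells were at 0. These markers therefore do not show that astrocyte transcripts were absent. The summed macrophage markers were at 2.0 CPM in dividing and 16.3 CPM in other fibroblasts of the WT library and at 0.831 and 3.58 CPM in Nuc1 cells, with 7 and 9 of the 10 markers at 0 in dividing cells. Endothelial markers summed to 9.53 and 6.01 CPM in WT cells and to 17.5 and 44.0 CPM in Nuc1 cells. Mural cell markers stayed between 2.22 and 4.16 CPM in all 4 groups. Oligodendrocyte lineage markers summed to 75.4 and 80.1 CPM in WT cells and to 54.4 and 86.6 CPM in Nuc1 cells, most of it Cnp, while Sox10 was at 0 in the dividing cells of both libraries. Scrublet, which looks for droplets holding more than 1 cell, called none of the 264 dividing cells a doublet. Depth stood over 3 median absolute deviations above its median in 7 dividing WT cells and 1 dividing Nuc1 cell. The 2 libraries shared 2 cell barcodes.

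Cells lay close to the cut at 300 CPM on both sides, with no gap between dividing and other fibroblasts. In the WT library 24 cells lay between 200 and 300 CPM, the highest of them at 283 CPM, and 16 lay between 300 and 400 CPM, the lowest at 303 CPM. In the Nuc1 library 14 cells lay between 200 and 300 CPM, up to 279 CPM, and 8 between 300 and 400 CPM, from 303 CPM. None of the 4 division genes had a UMI in 85.7% of other WT fibroblasts and in 88.7% of other Nuc1 fibroblasts. Among dividing cells the sum of the 4 genes had a median of 1282 CPM and ran from 303 to 11505 CPM in WT cells, and had a median of 1174 CPM and ran from 303 to 9825 CPM in Nuc1 cells.

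Of 10357 genes compared, each with at least 100 UMIs over all fibroblasts, 479 were at least 2-fold higher in dividing than in other fibroblasts of both libraries, which is 4.62%. Of these, 240 were at least 4-fold and 110 at least 16-fold higher in both. At least 2-fold lower in both libraries were 235 genes, which is 2.27%, and 21 of them were at least 4-fold lower. The count of lower genes was 476 with a minimum of 20 UMIs, 128 with 300 UMIs, and 154 and 153 in cells above and below 500 CPM of Actg2 and Penk. The number of genes compared also changes with these settings, so these counts are not set against 235. The median gene differed by -0.04 in WT and -0.05 in Nuc1 cells on the log2 scale. These shares are the background for the gene lists that follow, in which a member was counted with at least 20 UMIs.

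The 25 genes highest in dividing cells include the 4 genes of the rule, which stand there by selection. In rank order they were Top2a, Cenpf, Troap, Ube2c, Ube2t, Pimreg, Depdc1, Kif2c, Kif14, Prc1, Bub1b, Depdc1b, Ska1, Mki67, Hmmr, Plk1, Kif18b, Sapcd2, Ccna2, Cep55, Cdca2, Ect2, Kifc1, Iqgap3 and Tpx2, ranked by the smaller of the ratios in the 2 libraries. Troap, a spindle-associated protein, was at 51.7 CPM in dividing and 0.282 CPM in other WT fibroblasts, and at 33.7 and 0.196 CPM in Nuc1 cells. Ube2t, the ubiquitin-conjugating enzyme of the Fanconi anaemia pathway, was at 32.6 and 0.242 CPM in WT cells and at 19.5 and 0.098 CPM in Nuc1 cells. Prc1, which crosslinks the microtubules of the central spindle, was at 354 CPM in the dividing cells of both libraries, against 3.51 CPM in other WT and 2.65 CPM in other Nuc1 fibroblasts. The low levels in other fibroblasts rest on few molecules, such as 7 and 4 UMIs of Troap and 6 and 2 UMIs of Ube2t, so these ratios carry wide counting intervals. Several reached the minimum of 100 UMIs through the dividing cells alone, such as Ube2t with 147 and 47 of its 202 UMIs.

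Lists of mitotic genes had median log2 ratios from 4.40 to 5.88, and the 3 division markers above had 5.32 in WT and 5.56 in Nuc1 cells. All 14 mitotic kinases and members of the chromosomal passenger complex were at least 2-fold higher in both libraries, with a median log2 ratio of 5.38 in WT and 5.67 in Nuc1 cells. Plk1, which acts from centrosome maturation to cytokinesis, was at 194 CPM in dividing and 2.54 CPM in other WT fibroblasts (log2 ratio 6.24, 95% interval 5.89 to 6.65), and at 157 and 1.47 CPM in Nuc1 cells (6.69, 6.20 to 7.32). Aurkb, the catalytic subunit of the passenger complex, was at 151 and 6.05 CPM in WT and at 128 and 3.43 CPM in Nuc1 cells, and its partner Birc5 (survivin) was at 189 and 4.36 CPM and at 187 and 3.92 CPM. Both were scarce outside the dividing cells. Of 31 kinetochore and checkpoint genes 29 were at least 2-fold higher in both, with medians of 4.44 and 4.40. The exceptions were Zwint, at 79.2 and 62.2 CPM in WT and 133 and 106 CPM in Nuc1 cells, and Mis12, whose log2 ratio was 1.11 in WT and 0.67 in Nuc1 cells.

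The spindle and the division of the cell body followed the same pattern, with the exception of proteins that also work outside mitosis. Of 22 spindle motors and assembly factors 21 were at least 2-fold higher in both libraries (medians 5.82 and 5.88), and the exception was Numa1, at 106 against 87.4 CPM in WT and 99.3 against 98.1 CPM in Nuc1 cells. Tpx2, which nucleates spindle microtubules and activates Aurora A, was at 355 CPM in the dividing cells of the WT library and 356 CPM in those of the Nuc1 library, against 4.88 and 5.20 CPM in other fibroblasts. Of 11 genes of the central spindle and cytokinesis 8 were at least 2-fold higher in both (medians 5.74 and 5.16). The remaining members were Rhoa, Sept7 and Sept2, which serve the interphase cytoskeleton as well and whose log2 ratios lay between -0.15 and 0.60. Ect2, the exchange factor that activates RhoA at the cell equator, was at 110 against 1.53 CPM in WT and 89.3 against 0.490 CPM in Nuc1 cells.

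Genes of DNA replication were higher in nearly all cases, at ratios below those of mitotic genes. Of 34 genes of origin licensing and the replication fork 33 were at least 2-fold higher in both libraries, with median log2 ratios of 2.32 and 2.28. Mcm5, a subunit of the replicative helicase, was at 56.5 CPM in dividing and 6.17 CPM in other WT fibroblasts (log2 ratio 3.19, 2.90 to 3.49), and at 72.3 and 5.44 CPM in Nuc1 cells (3.72, 3.38 to 4.09). Pcna, the sliding clamp of the polymerases, was at 255 and 72.2 CPM in WT and at 214 and 55.7 CPM in Nuc1 cells. Pcna was thus within 4-fold, while Mcm5 was not. Pola2, a subunit of the primase complex, was the exception, with a log2 ratio of 2.01 in WT and 0.47 in Nuc1 cells. Nucleotide supply was counted at 9 of 12 genes, with medians of 2.18 and 2.34. Its members ranged from Rrm2, the S phase subunit of ribonucleotide reductase, at 24.2 against 0.363 CPM in WT and 22.4 against 0.294 CPM in Nuc1 cells, to Impdh2, a housekeeping enzyme of guanine synthesis, at 242 against 267 CPM and 295 against 331 CPM. DNA damage response and recombination, which is coupled to replication, had 19 of 26 genes at least 2-fold higher (medians 2.53 and 2.39).

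Among the cyclins and their kinases the ratios differed by phase. Of 17 cyclins, CDKs and their phosphatases 11 were at least 2-fold higher in both libraries. Ccnb1, the mitotic cyclin, was at 192 CPM in dividing and 1.53 CPM in other WT fibroblasts and at 131 and 1.91 CPM in Nuc1 cells. Ccne1, the cyclin of S phase entry, was at 49.0 and 16.1 CPM in WT and at 47.8 and 16.5 CPM in Nuc1 cells. The D-type cyclins, which link growth signals to G1, were within 2-fold in both libraries. Ccnd2 had log2 ratios of -0.75 in WT and -0.83 in Nuc1 cells, and Ccnd3 of 0.06 and -0.20. Of 15 transcription factors of the cycle 5 were at least 2-fold higher in both, namely Foxm1, Mybl2, E2f7, Lin9 and Lin54. Foxm1 was at 21.3 and 1.29 CPM in WT and at 24.5 and 0.833 CPM in Nuc1 cells, and Mybl2, which encodes B-Myb, at 40.8 and 2.34 CPM and at 55.3 and 2.65 CPM. The subunits of NF-Y, which binds CCAAT, stayed within 2-fold, at log2 ratios from 0.18 to 0.63.

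Among brakes on division, 3 of 19 genes were at least 2-fold higher in both libraries, and none was at least 2-fold lower in both. Those higher were Cdkn3, a phosphatase that acts on CDKs, at 321 against 17.2 CPM in WT and 335 against 16.0 CPM in Nuc1 cells, Cdkn2c, an inhibitor of Cdk4 and Cdk6, at 212 against 47.1 CPM and 169 against 35.7 CPM, and the pocket protein gene Rbl1, whose log2 ratio in Nuc1 cells was 0.28 (-3.03 to 2.80, from 2 UMIs in dividing cells) among cells with at least 500 CPM of Actg2 and Penk. Cdkn1c, which encodes p57 and holds cells in G1, was lower, at 341 against 606 CPM in WT cells (log2 ratio -0.83, -0.91 to -0.75) and at 506 against 1322 CPM in Nuc1 cells (-1.39, -1.47 to -1.30). Btg2, an antiproliferative gene, was at 505 against 908 CPM in WT and at 180 against 391 CPM in Nuc1 cells. Cdkn1a, which encodes p21, lay the other way, at 214 against 157 CPM in WT and at 248 against 170 CPM in Nuc1 cells. The anaphase-promoting complex split by role. Its activator Cdc20 was at 353 against 5.57 CPM in WT and 281 against 7.06 CPM in Nuc1 cells, and its targets Pttg1 (securin) and Espl1 (separase) had log2 ratios between 4.50 and 6.23. Core subunits such as Anapc4, Cdc16 and Anapc13 had log2 ratios between -0.15 and 0.01, and 8 of the 21 genes of the list were at least 2-fold higher in both.

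**Figure D1:**
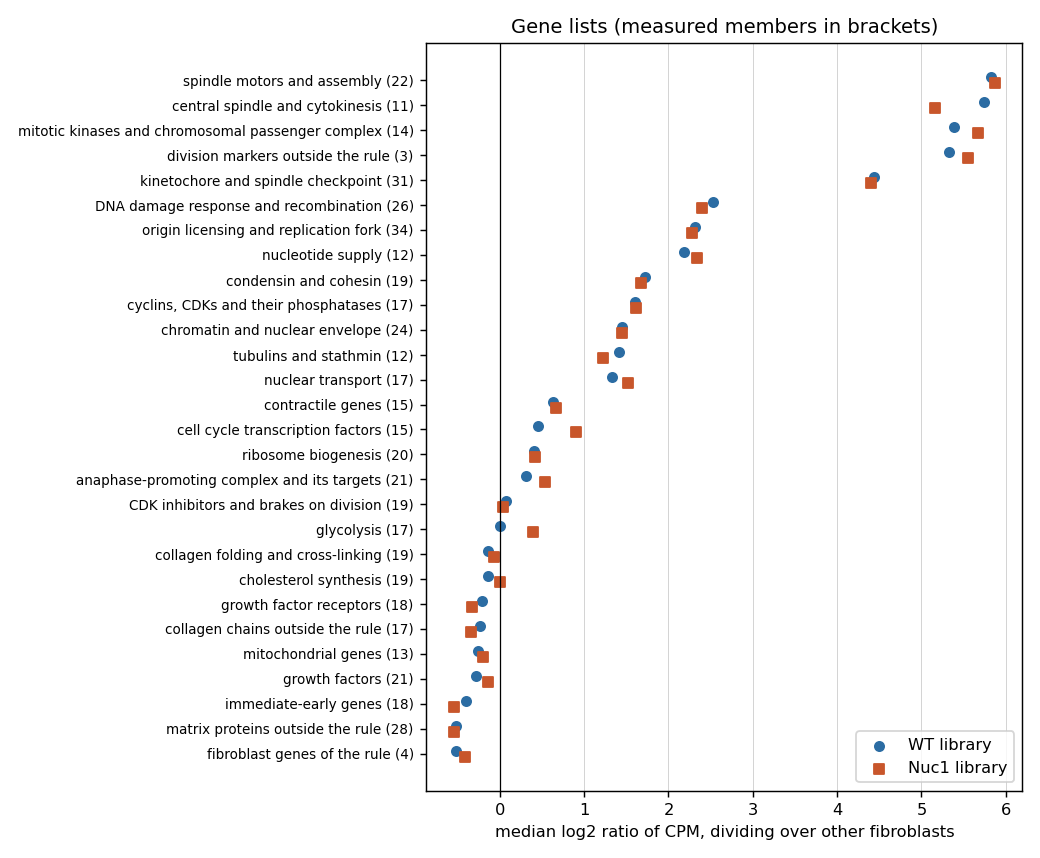
Median log2 ratio of dividing over other fibroblasts (horizontal axis) for each gene list (vertical axis), with 1 point for the WT and 1 for the Nuc1 library. Kinetochore genes lie at 4.44 and 4.40, replication genes at 2.32 and 2.28, and collagen, growth factor and immediate-early lists below 0.

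Chromosome and nuclear genes were higher in part. Of 19 condensin and cohesin genes 11 were at least 2-fold higher in both libraries: the condensin subunit Smc2 was at 438 against 67.8 CPM in WT and 402 against 62.1 CPM in Nuc1 cells, whereas the cohesin loader Nipbl was at 139 against 133 CPM and 145 against 158 CPM. Hmgb2, a chromatin protein, was at 1132 against 102 CPM in WT and 867 against 69.9 CPM in Nuc1 cells, and Stmn1, which destabilizes microtubules, at 1064 against 150 CPM and 1021 against 131 CPM. Nuclear transport was counted at 13 of 17 genes, with Ran, the GTPase that also directs spindle assembly, at 1193 against 401 CPM in WT and 1248 against 433 CPM in Nuc1 cells. Of 12 tubulins and stathmin genes 8 were at least 2-fold higher, and of 24 chromatin and nuclear envelope genes 14. Tubulin genes resemble each other closely, so the split of reads between them is uncertain.

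Promoters of the genes that mark the cells are shown for motifs known from cell cycle promoters: CCAAT, bound by NF-Y, TTTGAA, the cell cycle homology region bound by MuvB, and the E2F sites TTTNNCGC and GGCGGGA. Sequences run from 250 bases before to 50 bases after the annotated start, 5′ to 3′ on the coding strand, and are from RefSeq on build GRCr8. Capitals mark a motif on either strand. Top2a is at chr10:84473044-84473343 on the minus strand, Cenpf at chr13:103760837-103761136 on the minus strand, Cdk1 at chr20:19265043-19265342, Plk1 at chr1:186147408-186147707 and Mcm5 at chr19:13488563-13488862, the last 3 on the plus strand. Troap, at chr7:132113238-132113537 on the plus strand, is shown for a mitotic gene without TTTGAA. Mcm5 stands for replication genes and the other 5 for genes of mitosis.
Top2a: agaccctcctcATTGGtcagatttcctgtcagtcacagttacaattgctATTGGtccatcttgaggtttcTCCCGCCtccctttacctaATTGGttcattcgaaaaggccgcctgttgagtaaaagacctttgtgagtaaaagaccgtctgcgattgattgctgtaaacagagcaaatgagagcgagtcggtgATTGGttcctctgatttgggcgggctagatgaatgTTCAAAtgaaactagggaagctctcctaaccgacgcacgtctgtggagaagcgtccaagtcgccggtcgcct
Cenpf: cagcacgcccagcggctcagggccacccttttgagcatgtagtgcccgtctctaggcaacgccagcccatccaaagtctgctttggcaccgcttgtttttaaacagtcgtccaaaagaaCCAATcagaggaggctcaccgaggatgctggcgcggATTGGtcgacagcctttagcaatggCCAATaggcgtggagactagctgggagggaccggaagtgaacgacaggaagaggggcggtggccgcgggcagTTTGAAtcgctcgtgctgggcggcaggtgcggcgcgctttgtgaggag
Cdk1: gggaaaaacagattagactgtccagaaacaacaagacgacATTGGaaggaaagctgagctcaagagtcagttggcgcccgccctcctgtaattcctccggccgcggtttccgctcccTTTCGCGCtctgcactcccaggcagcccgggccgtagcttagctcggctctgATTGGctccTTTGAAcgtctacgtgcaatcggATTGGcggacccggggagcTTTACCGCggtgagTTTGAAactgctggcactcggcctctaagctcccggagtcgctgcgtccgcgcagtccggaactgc
Plk1: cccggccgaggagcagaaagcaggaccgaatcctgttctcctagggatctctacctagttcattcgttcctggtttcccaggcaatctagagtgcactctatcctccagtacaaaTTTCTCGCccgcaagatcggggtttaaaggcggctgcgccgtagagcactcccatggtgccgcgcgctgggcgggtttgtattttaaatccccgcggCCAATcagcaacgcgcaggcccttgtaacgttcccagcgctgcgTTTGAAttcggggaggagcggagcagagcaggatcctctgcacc
Troap: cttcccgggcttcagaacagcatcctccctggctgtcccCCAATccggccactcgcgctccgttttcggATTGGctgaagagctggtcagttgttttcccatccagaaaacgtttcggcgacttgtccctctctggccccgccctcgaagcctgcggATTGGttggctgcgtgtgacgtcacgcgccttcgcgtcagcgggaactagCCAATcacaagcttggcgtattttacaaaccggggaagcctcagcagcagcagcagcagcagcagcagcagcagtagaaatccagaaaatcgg
Mcm5: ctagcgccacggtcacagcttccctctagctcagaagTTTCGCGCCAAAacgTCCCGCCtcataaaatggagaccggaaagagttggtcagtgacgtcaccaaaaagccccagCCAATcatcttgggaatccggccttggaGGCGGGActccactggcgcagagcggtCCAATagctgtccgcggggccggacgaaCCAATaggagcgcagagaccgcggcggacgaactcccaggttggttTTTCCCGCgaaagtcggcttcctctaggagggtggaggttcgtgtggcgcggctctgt
Top2a held 4 CCAAT and 1 TTTGAA in this window, Cenpf 3 and 1, Cdk1 3 and 2, and Plk1 1 and 1. Troap held 4 CCAAT, Ube2t 2 and Ccnb1 2, and none of these 3 held TTTGAA. E2F sites were also in mitotic promoters, with 2 TTTNNCGC in Cdk1, 1 in Plk1 and 1 GGCGGGA in Top2a. Mcm5 held 3 CCAAT, no TTTGAA, 2 GGCGGGA and 3 TTTNNCGC, and 2 of the TTTNNCGC overlap each other on opposite strands.

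Over the lists the same motifs were spread unevenly. TTTGAA was in 58.2% of 67 promoters of the mitotic lists, 15.4% of 39 promoters of the replication and nucleotide lists and 11.4% of 7522 promoters of all genes compared. TTTNNCGC was in 9.0% of the mitotic, 41.0% of the replication and nucleotide, and 9.3% of all promoters of genes compared. CCAAT was in 55.2%, 61.5% and 38.3%, and GGCGGGA in 26.9%, 30.8% and 22.1% of the same sets. Of the 25 highest genes 18 had an entry, and 83.3% of these held TTTGAA and 77.8% CCAAT. In the 33469 promoters of the whole table the shares were 37.5% for CCAAT, 18.3% for TTTGAA, 4.9% for TTTNNCGC and 10.5% for GGCGGGA. A match is a description of these letters and says nothing about binding in these cells.

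Cells were then placed by their own sums of 47 replication and nucleotide genes and of 75 mitotic genes, none of them a gene of the rule. The median replication sum was 3583 CPM in dividing and 906 CPM in other WT fibroblasts, and 3667 and 1015 CPM in Nuc1 cells. The median mitotic sum was 6497 and 401 CPM in WT and 5430 and 453 CPM in Nuc1 cells. With limits at the 95th percentile of other fibroblasts, 152 of 180 dividing WT cells and 71 of 84 dividing Nuc1 cells were above both. Above the mitotic limit alone were 26 WT and 12 Nuc1 cells, above the replication limit alone 0 and 0, and above neither 2 and 1. Of other fibroblasts, which set the limits, 46 WT and 37 Nuc1 cells were above the replication limit alone and the same numbers above the mitotic limit alone. These numbers are equal by construction, since both limits are the same percentile of the same cells.

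**Figure D2:**
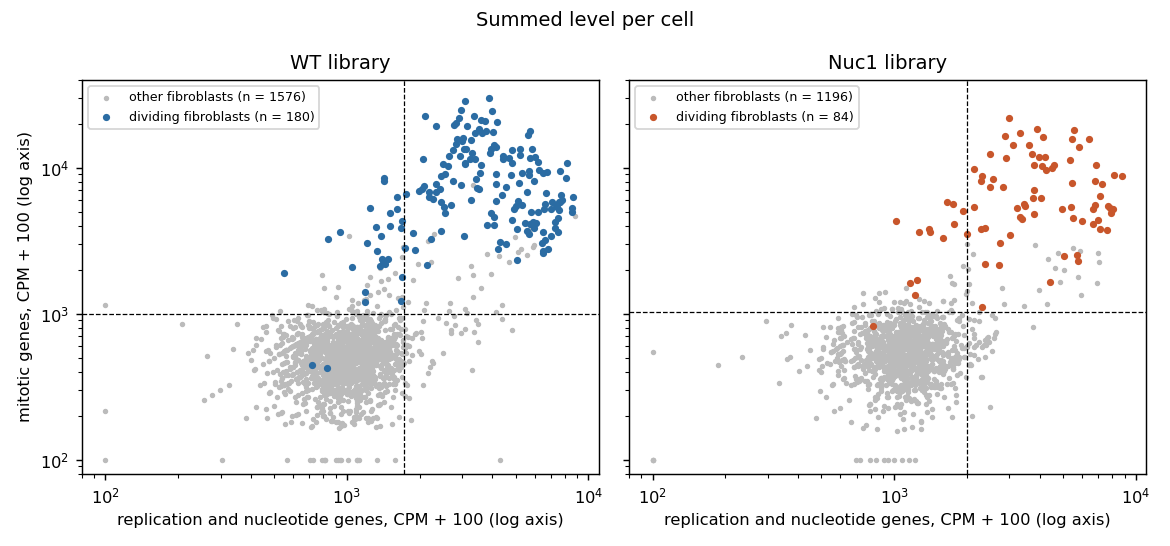
Each point is 1 fibroblast, with the sum of 47 replication and nucleotide genes on the horizontal and of 75 mitotic genes on the vertical axis (CPM plus 100, log axes), 1 panel per library; dashed lines are the 95th percentile of other fibroblasts. Dividing cells lie in the upper right, with 152 of 180 WT and 71 of 84 Nuc1 cells above both lines, and none is above the replication line alone. The rule that selected the cells sets this in part.

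Within the dividing cells the mitotic sum was higher where the division genes were higher, and the replication sum changed little. Across cells, Spearman's rho of the 4-gene sum was 0.92 with the mitotic sum and 0.09 with the replication sum over 180 WT cells. It was 0.93 and 0.18 over 84 Nuc1 cells, with each cell's depth shared by both measures. The 4-gene sum also selected the cells, so these relations and the bands that follow are set in part by the rule. In bands of 300 to 600, 600 to 1200, 1200 to 2400 and at least 2400 CPM, the mitotic level of WT cells was 2791, 4569, 7878 and 14121 CPM and the replication level 3530, 4213, 4014 and 3875 CPM. In Nuc1 cells the mitotic level was 2688, 4709, 7632 and 12154 CPM and the replication level 3462, 4404, 4526 and 3996 CPM. Single genes moved in different directions along these bands, also among genes of S phase. Ccne2, a cyclin of S phase entry, was at 38.9, 58.4, 35.0 and 14 CPM in WT and at 62.4, 48.7, 40.4 and 9.28 CPM in Nuc1 cells. Plk1 was at 32.6, 52.4, 119 and 434 CPM in WT and at 9.98, 51.5, 110 and 334 CPM in Nuc1 cells. Ccnb1 was at 30.1, 68.8, 165 and 393 CPM in WT and at 12.5, 73.0, 110 and 245 CPM in Nuc1 cells. The highest band thus held the least Ccne2 and the most Plk1 and Ccnb1 in both libraries. Cdkn1c was at 379, 315, 323 and 352 CPM in WT and at 839, 432, 509 and 410 CPM in Nuc1 cells, in each band below the 606 and 1322 CPM of other fibroblasts.

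**Figure D3:**
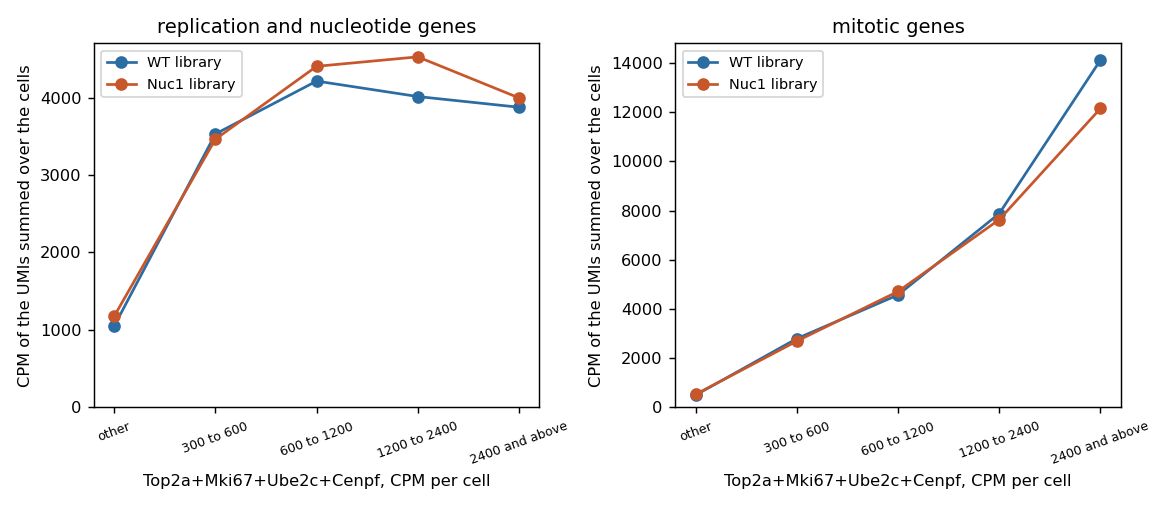
Level in CPM (vertical axis) of the replication and the mitotic genes in other fibroblasts and in 4 bands of the sum of Top2a, Mki67, Ube2c and Cenpf (horizontal axis), per library. Over the 4 bands the mitotic level runs from 2791 to 14121 CPM in WT and from 2688 to 12154 CPM in Nuc1 cells. The replication level there stays between 3462 and 4526 CPM. Other fibroblasts of WT and Nuc1 lie at 492 and 522 CPM for mitotic and at 1047 and 1174 CPM for replication genes. The bands are cut on the sum that selected the cells.

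Most collagen chains were slightly lower in dividing cells. Of 17 collagen chains outside the rule none was at least 2-fold higher or lower in both libraries, with median log2 ratios of -0.23 and -0.34 and 13 lower in both. Of 28 other matrix genes 3 were at least 2-fold lower in both, namely Igfbp5, Fmod and Clec3b, and none was at least 2-fold higher in both. The Nuc1 ratio of Clec3b rests on fewer than 3 UMIs in dividing cells. Igfbp5, which binds insulin-like growth factors, was at 518 CPM in dividing and 1584 CPM in other WT fibroblasts (log2 ratio -1.61, -1.67 to -1.55) and at 523 and 1542 CPM in Nuc1 cells (-1.56, -1.64 to -1.48). The ratio differed between fibroblast types and was -1.59 in WT and -2.34 in Nuc1 cells with at least 500 CPM of Actg2 and Penk, and -1.01 and -0.92 in cells below that, where Nuc1 cells were within 2-fold. Fn1, which encodes fibronectin, was at 3134 against 2748 CPM in WT and 2976 against 2249 CPM in Nuc1 cells. Adamts2, which trims procollagen, was at 36.4 against 70.7 CPM in WT and 30.8 against 70.6 CPM in Nuc1 cells.

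Few growth signalling genes differed by 2-fold in both libraries. None of 18 growth factor receptors was at least 2-fold higher or lower in both libraries, and Pdgfra, a receptor for platelet-derived growth factor, was at 51.9 against 85.8 CPM in WT and 109 against 238 CPM in Nuc1 cells. Of 21 growth factors 1 was at least 2-fold lower in both, Fgf10, which rests on 1 and 8 UMIs in dividing cells. Igf1 was at 132 against 278 CPM in WT and 106 against 203 CPM in Nuc1 cells. Immediate-early genes, which growth factors and cell handling induce, had 13 of 18 members lower in both libraries, none by 2-fold in both, with medians of -0.40 and -0.55. Fos was at 990 against 1340 CPM in WT and 509 against 910 CPM in Nuc1 cells. Of 17 glycolysis genes 1 was at least 2-fold lower in both, Aldoc, and of 19 cholesterol synthesis genes none was at least 2-fold higher or lower. All 13 mitochondrial genes were lower in both libraries, with medians of -0.25 and -0.20, though in cells with less than 500 CPM of Actg2 and Penk the medians were -0.07 and 0.02. Ribosome biogenesis was counted at 3 of 20 genes higher, Nop56, Nop58 and Nhp2, the last at 10 and 7 UMIs in dividing cells.

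Among the 15 genes lowest in dividing cells were Kif1a, Sox2, Hsd11b1, Tyrobp, Capn6, Cxcl14, Il34, Sema4g, Ccl11, Gdpd2, Myo1f, LRRTM1, Fes and Pcp4. Each of these rests on at most 14 UMIs in the dividing cells of a library, and the Nuc1 ratios of Cxcl14 and LRRTM1 were above 0 among cells rich in Actg2 and Penk. They reached the minimum of 100 UMIs through other fibroblasts, and some ratios do not show a lower level. Kif1a had 0 against 9 UMIs in WT cells, with an interval of the log2 ratio that reached above 0, and those of Tyrobp and Fes in Nuc1 cells reached 2.31 and 0.15. Tyrobp, a macrophage adaptor, had 2 and 0 UMIs in dividing and 110 and 8 UMIs in other fibroblasts, in which macrophage markers were higher, and their part in this difference was not tested.

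Contractile genes, which serve the actin bundles of myofibroblasts and smooth muscle, were in part higher in dividing cells. Of 15 genes 5 were at least 2-fold higher in both libraries, with medians of 0.63 and 0.67. Actg2, a smooth muscle actin, was at 1099 CPM in dividing and 345 CPM in other WT fibroblasts and at 472 and 78.6 CPM in Nuc1 cells. Acta2, the actin of myofibroblasts, was at 449 and 143 CPM in WT and at 145 and 36.9 CPM in Nuc1 cells. Tagln, which binds actin filaments, was at 3219 and 1492 CPM in WT and at 1850 and 594 CPM in Nuc1 cells. Cnn1 and Actn1 completed the 5, while Tpm1 was lower in both, at log2 ratios of -0.19 and -0.58.

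Dividing cells were unevenly spread over the fibroblast types that marker pairs separate. With a cut of 500 CPM, chosen after the values were seen, 133 of 916 WT cells with Actg2 and Penk were dividing, 14.5% (exact 95% interval 12.3 to 17.0), and 41 of 280 in Nuc1 cells, 14.6% (10.7 to 19.3). Below that cut the share was 47 of 840 in WT cells, 5.60% (4.14 to 7.37), and 43 of 1000 in Nuc1 cells, 4.30% (3.13 to 5.75). Cells with Actg2 and Penk made up 73.9% of dividing WT and 48.8% of dividing Nuc1 fibroblasts. Cells with at least 500 CPM of Ccn3 and Rspo3 were dividing in 6.88% of cases against 19.7% below that cut in WT cells, and in 3.54% against 7.91% in Nuc1 cells. At a cut of 200 CPM these shares were 8.09% against 21.4% in WT but 6.76% against 6.37% in Nuc1 cells, so the Nuc1 difference depends on the cut. For Actg2 and Penk a cut of 200 CPM gave 12.8% against 4.25% in WT and 12.2% against 3.83% in Nuc1 cells. The types are not exclusive, and Actg2 is both a marker of the type and a gene that differs between dividing and other cells.

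Contractile genes were therefore compared again within cells above and below the cut. Among cells with at least 500 CPM of Actg2 and Penk, Acta2 had log2 ratios of dividing over other of 1.34 in WT and 1.94 in Nuc1 cells. Among cells below it, the ratios of Acta2 were 0.11 (-0.32 to 0.51) and -0.88 (-1.68 to -0.19). Other contractile genes differed there: Actn1 stayed higher, at 0.32 (0.06 to 0.58) in WT and 0.50 (0.24 to 0.74) in Nuc1 cells. Tagln was at 0.57 (0.47 to 0.66) in WT but 0.10 (-0.05 to 0.25) in Nuc1 cells, and Tpm1 was lower, at -0.42 and -0.57. The median of the contractile list was 0.77 and 0.80 above the cut and 0.11 and -0.03 below it. The list holds Actg2, which with Penk sets the cut. Ratios of Actg2 and of genes that go with it are therefore in part set by the split. Cdkn1c was lower in dividing cells in each of these groups, at -0.76 and -1.77 above and -0.63 and -0.91 below the cut, and so was Btg2, at -0.79 and -0.94 above and -0.72 and -1.42 below.

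**Figure D4:**
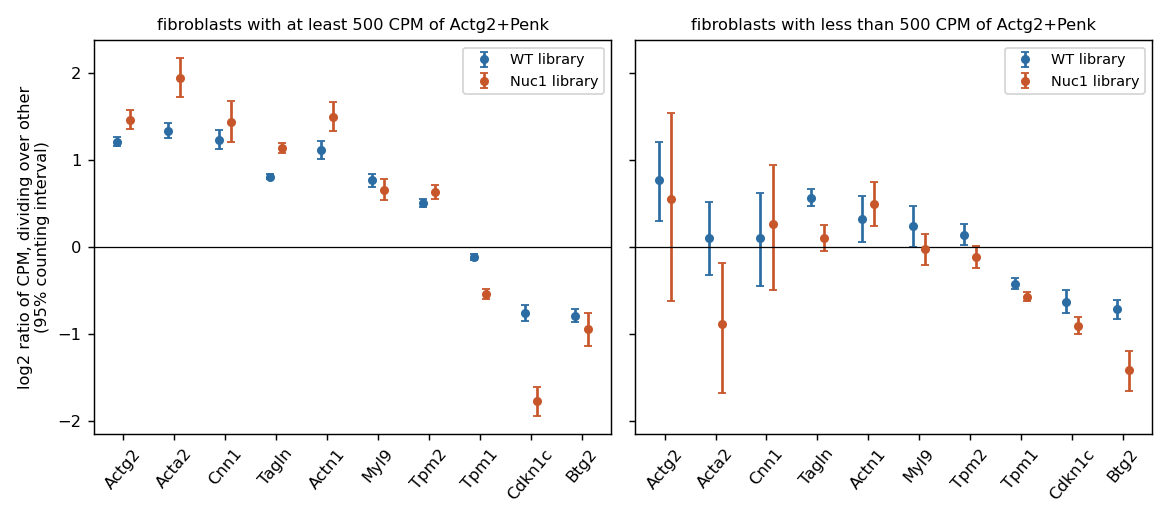
Log2 ratio of dividing over other fibroblasts (vertical axis) for 10 genes (horizontal axis), per library, in cells with at least 500 CPM and with less than 500 CPM of Actg2 and Penk; bars are exact 95% intervals for counting error. Acta2 is at 1.34 and 1.94 above the cut and at 0.11 and -0.88 below it, while Cdkn1c and Btg2 are below 0 in all 4 comparisons.

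The WT library held a larger share of dividing fibroblasts, 180 of 1756 or 10.3% (exact 95% interval 8.87 to 11.8), than the Nuc1 library, 84 of 1280 or 6.56% (5.27 to 8.06). These intervals cover counting error only, and with 1 library per genotype the difference has no replicate check. Cells with at least 500 CPM of Actg2 and Penk were 52.2% of WT and 21.9% of Nuc1 fibroblasts, and within them the shares were 14.5% and 14.6%. Below that cut, which was chosen after the values were seen, the shares of dividing cells were 5.60% and 4.30%. The part of this mix of cells in the difference between the libraries was not tested. The libraries also differed in sex makeup: the Y-linked gene Eif2s3y had 0 UMIs in dividing WT cells, whereas 18 of 84 dividing Nuc1 cells held 55 UMIs of it. Genotype, sex makeup and library cannot be told apart.

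Dividing cells of the genotypes were compared next; both met the same cut on division genes, so like levels of those genes are set in part by the rule. Of 6623 genes with at least 100 UMIs in the dividing cells of both libraries together, 87 were at least 2-fold higher in Nuc1 than in WT dividing cells, which is 1.31%, and 173 at least 2-fold lower, which is 2.61%. These counts depend on the minimum and on depth: they were 308 and 438 with 20 UMIs, 32 and 83 with 300 UMIs, and 32 and 109 after thinning to 10000 UMIs. In cells with at least 500 CPM of Actg2 and Penk 45 genes were higher, and below that 51 were higher and 96 lower. The number of genes compared changes with each of these settings as well, so the counts are not set against 87 and 173. The division markers outside the rule had a median log2 ratio of -0.44, with Cks2 at -0.58 (-0.70 to -0.47), Cdk1 at -0.44 (-0.55 to -0.34) and Nusap1 at 0.14 (-0.002 to 0.28). The medians of the replication, cyclin, transcription factor and mitotic lists lay between -0.23 and 0.20. Immediate-early genes had a median of -0.94, with 6 of 16 members at least 2-fold lower, and collagen chains of -0.56, with 3 lower. In other fibroblasts the medians of the same genes were -0.80 for immediate-early genes and -0.14 for collagen chains. Of the 87 higher genes 63 and of the 173 lower genes 126 were also at least 2-fold different in the same direction in other fibroblasts. How many of all 6623 genes passed 2-fold in other fibroblasts was not counted, so this overlap has no background. It does not separate shared from particular genes.

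Among the 12 genes highest in Nuc1 dividing cells were Apod, Ptgds, RT1-A1, A2m, Tmem176b, Tmem176a, Dhrs3, Tgm2, Dhrs9, Il33 and Gjb2. Apod, a lipid carrier, was at 2.22 CPM in WT and 77.3 CPM in Nuc1 dividing cells (log2 ratio 5.04, 4.21 to 6.21), and the ratio was 4.90 in other fibroblasts. It was detected in 6 WT and 13 Nuc1 dividing cells. Over the other processing choices tried, the Apod ratio in dividing cells ran from 2.41 to 5.76, beyond the counting interval at its low end. Tmem176a was at 36.1 and 282 CPM in dividing cells (2.96, 2.71 to 3.22), and RT1-A1, a class I histocompatibility gene, was detected in 21 of 180 WT and 61 of 84 Nuc1 dividing cells (log2 ratio 3.45). RT1-A1 was thus spread over most Nuc1 cells, but class I genes have near-identical copies, between which reads may be split. Ptgds was not, since 1 cell gave 74.9% of its UMIs in Nuc1 and 1 cell gave 64.7% in WT dividing cells.

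Among the 12 genes lowest in Nuc1 dividing cells were Wfdc1, Clec3b, Car3, Csrnp1, Fndc1, Scg2, Wnt16, Nr4a2, Nr4a1 and Cyb5r1. Wfdc1, a secreted protease inhibitor-like protein, had 154 UMIs in WT and 0 in Nuc1 dividing cells, at least 27.4-fold lower against a floor of 3 UMIs. Clec3b, which encodes tetranectin, had 141 and 2 UMIs (log2 ratio -5.01, -8.29 to -3.35). Nr4a1, an immediate-early nuclear receptor, was at 352 CPM in WT and 45.3 CPM in Nuc1 dividing cells (-2.96, -3.25 to -2.68), against -2.62 in other fibroblasts, and was detected in 161 of 180 WT and 44 of 84 Nuc1 dividing cells. Wnt16, a secreted Wnt ligand, was at 23.3 and 2.49 CPM (-3.15, -4.70 to -2.05).

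**Figure D5:**
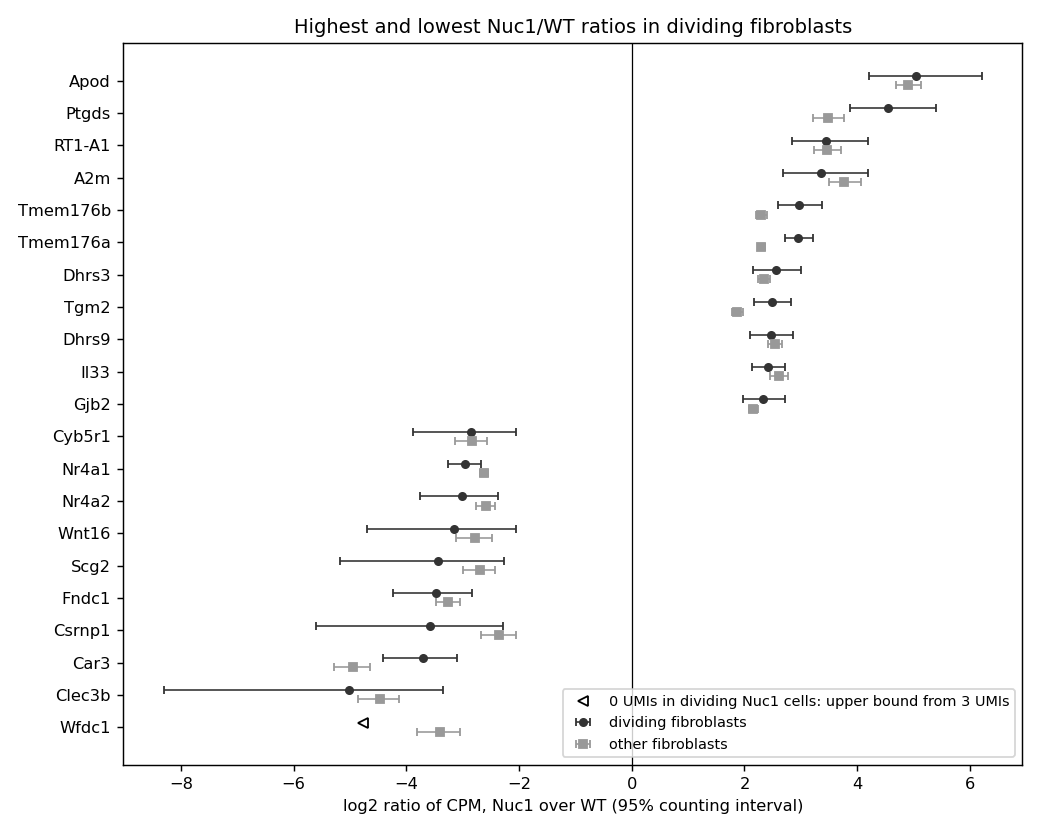
Log2 ratio of Nuc1 over WT (horizontal axis) for the 11 genes named as highest and the 10 named as lowest in dividing fibroblasts, with points for dividing and for other fibroblasts and exact 95% intervals for counting error; Wfdc1 in dividing cells is an upper bound from 3 UMIs. Apod is at 5.04 in dividing and 4.90 in other cells, and Nr4a1 at -2.96 and -2.62.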

How the data were processed

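Counts of unique molecular identifiers (UMIs) per gene and cell barcode were deposited by the authors as 2 matrices, without normalization. Submitters' processing notes name Cell Ranger 3.1.0, STAR 2.7 and Seurat 3.1.0 and 3.1.1, and the genome build is not given in the sources used here. The 2 libraries held 34517542 UMIs in 2107 barcodes (WT) and 35794685 UMIs in 1929 barcodes (Nuc1), of which 1968 and 1793 cells were kept. Of the 25399 genes listed, the 99 symbols listed more than once were not used for named genes. No column of another sample was found.

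For dividing and other fibroblasts of each library, the UMIs of a gene were added up and divided by the total of the group to give CPM. To form ratios, 0.5 UMIs were added to both sums in proportion to group totals. Intervals at 95% were Clopper-Pearson for shares, exact Poisson for sums and exact conditional for ratios, and hold counting error alone. With 0 UMIs, up to 3 UMIs are allowed, which is 0.665 CPM in WT dividing, 0.121 in WT other, 1.25 in Nuc1 dividing and 0.147 in Nuc1 other fibroblasts. No p-value was computed, because the cells were selected on the values compared and each genotype has 1 library. Members, lists and tests were chosen with earlier results of these data known. Named genes were the 25 highest and 15 lowest by the smaller ratio of the 2 libraries, and the 12 highest and 12 lowest ratios of Nuc1 over WT, with genes of mitochondria, ribosomal proteins and no symbol left out. A few genes that met this rule or belong to a list are not reported here. Genes of the lists named beside them were picked for their roles after their values were seen. Doublets were sought with Scrublet but no cell was left out for it. Steps were tested on simulated counts. Promoters were searched on both strands for the 4 motifs. Python 3.11.15 with numpy 2.4.6, scipy 1.17.1, pandas 2.3.3, scanpy 1.11.5 and matplotlib 3.10.9 was used, and edgeR 4.0.16 in R 4.3.3 gave TMM scaling as an alternative. Others tried were division cuts of 150 and 600 CPM, limits on mitochondrial UMIs and depth, minimums of 20 and 300 UMIs per gene, members chosen by Cdk1, Nusap1 and Cks2, thinning to 10000 UMIs, the mean of CPM per cell, 5 UMIs added, other fibroblasts without any division UMI and, added after the data were seen, cells above and below 500 CPM of Actg2 and Penk.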

Additional observations from a re-analysis of the deposited data

Results flagged for a closer look

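Of 556 genes of the lists and named genes, 7 had ratios of dividing over other fibroblasts that lay on opposite sides of 0 in WT and Nuc1 cells, each with a counting interval that left out 0. The difference between the genotypes was not tested, since each genotype has 1 library. Col15a1, a basement membrane collagen, had log2 ratios of 1.32 in WT and -1.64 in Nuc1 cells, from 125 UMIs in WT and 24 UMIs in Nuc1 dividing cells. Flt1, a receptor for vascular endothelial growth factor, had log2 ratios of 1.19 and -1.26, from 28 and 21 UMIs in dividing cells. Endothelial markers together were at 9.53 against 6.01 CPM in WT and 17.5 against 44.0 CPM in Nuc1 cells, and their part in this result was not tested. Hspb1, a small heat shock protein, had log2 ratios of 0.44 and -1.62, at 93.3 against 68.6 CPM and 27.4 against 84.3 CPM. The other 4 were smaller, with log2 ratios of -0.22 and 0.46 for Ccnd1, 0.37 and -0.26 for Igfbp4, 0.29 and -0.57 for Tubb2a, and -0.31 and 0.07 for Lox.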

How the results depend on the processing

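No paired analysis was possible because the labels give no replicate numbers and 1 library stands for each genotype. The share of dividing fibroblasts was 12.6% in WT and 8.67% in Nuc1 cells at a division cut of 150 CPM, and 8.14% and 5.08% at 600 CPM. It was 12% in WT cells at 10% mitochondrial UMIs. It was 14.5% and 14.6% in cells with at least 500 CPM of Actg2 and Penk, and 5.60% and 4.30% below that. Members chosen by Cdk1, Nusap1 and Cks2 numbered 165 and 69, of which 150 and 63 were also chosen by the rule. Genes at least 2-fold higher in both libraries numbered 359 to 604 over the alternatives. With a minimum of 20 UMIs, 476 genes were at least 2-fold lower in dividing cells, and 308 were higher and 438 lower in Nuc1. With 300 UMIs these counts were 128, 32 and 83. After thinning, 32 genes were higher and 109 lower in Nuc1. Within cells rich in Actg2 and Penk, 154 genes were lower in dividing cells and 45 higher in Nuc1, and below the cut 153 were lower, 51 higher in Nuc1 and 96 lower in Nuc1. The minimums, the thinning and this split also change how many genes are compared, so a smaller count need not mean smaller differences. Direction turned in Nuc1 cells for Cxcl14 (0.047) and LRRTM1 (0.78) above the cut, and for the medians of contractile genes (-0.029) and mitochondrial genes (0.017) below it. These groups hold fewer cells and UMIs, and the cause was not tested. Kits that read the 3′ end miss genes whose annotated end is short, so levels were compared within a gene only. Genes near 3 UMIs in a group, such as those lowest in dividing cells, are limited by depth.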

Other observations

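Cells that met the cut on division genes were also present outside the fibroblast rule. Of kept cells that were not fibroblasts by the rule, 34 of 212 in WT cells (16.0%) and 30 of 513 in Nuc1 cells (5.85%) had at least 300 CPM of Top2a, Mki67, Ube2c and Cenpf. Of these, 27 WT and 26 Nuc1 cells reached 500 CPM of the astrocyte genes Gfap, Fabp7 and Aqp4, and 7 and 4 fell short of 500 CPM of the fibroblast genes. Among fibroblasts below the cut, 33 WT and 23 Nuc1 cells were above the limits of both the replication and the mitotic sum.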
